A study of Homo sapiens with 16 samples.

Results

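The G2/M and mitosis genes are 32 genes whose products drive cells from late G2 through division. They were chosen by gene symbol and found by Ensembl ID, 32 of 60676 IDs in the deposited count tables, and all 32 stayed among the 21810 genes that passed the filter on low counts. The material was total RNA of LNCaP cells, an androgen-dependent cell line from a metastasis of human prostate adenocarcinoma. Knockout cells (DKO), in which RB and p53 had both been disrupted with CRISPR-Cas9, were set against the parental cells (WT) they were made from. Each genotype received the antiandrogen enzalutamide (EZ) at 50 µM or only its solvent DMSO for 6 days, with 4 libraries in each of the groups DKO EZ, DKO DMSO, WT EZ and WT DMSO. Whether the DKO cells were 1 clone or a pool is not given in the sources used here. The comparisons ask what the drug does to mitotic transcripts in each genotype and what the knockout does with and without the drug.

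Mitotic genes are transcribed in a wave that peaks in G2 and mitosis. In resting and early cycling cells the DREAM complex, made of the MuvB core with RBL1 or RBL2 and E2F4, binds their promoters and represses them, and later MuvB joins the activators MYBL2 and FOXM1. RB holds back E2F-driven entry into the cycle, and active p53 strengthens DREAM through the CDK inhibitor p21. Transcripts of these genes are widely used in prostate cancer to describe proliferation.

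Promoter sequences are shown because most members shared a pair of short motifs that the choice of members did not use. RefSeq promoters (GRCh38.p14, 250 bases before to 50 after a start site) were at hand for 28 start sites of 26 of the 32 members. Both strands were searched for the core of the cell cycle homology region, to which MuvB binds through LIN54, spelled TTTGAA with TTCGAA as its other allowed form, and for the CCAAT box bound by NF-Y. The motifs can share bases, as in CDCA8, where a TTTGAA and a reversed CCAAT box share 1 base. The homology region core was found in 20 of 28 member promoters (71.4%), against 5742 of 35116 promoters in the table (16.4%). CCAAT was found in 24 of 28 (85.7%), against 34.6% of all promoters. Both were present in 18 of 28 (64.3%), against 6.38% of all promoters. These shares describe letters in a window and not binding. The promoters of CCNB2, PLK1, CENPA, HMMR and the second listed start site of CDK1 are shown because they hold both motifs and these genes' values are described in detail, and that of KIF2C because it holds neither. Capitals mark the motifs, read on either strand, and each sequence runs 5′ to 3′ along its gene.
CCNB2, chr15:59104896-59105195, plus strand: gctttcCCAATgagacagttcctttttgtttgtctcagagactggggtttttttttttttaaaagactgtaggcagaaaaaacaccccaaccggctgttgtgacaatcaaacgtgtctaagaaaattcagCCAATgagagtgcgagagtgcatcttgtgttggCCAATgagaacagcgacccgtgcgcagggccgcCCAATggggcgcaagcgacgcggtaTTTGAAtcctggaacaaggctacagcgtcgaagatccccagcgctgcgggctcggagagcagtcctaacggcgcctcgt
PLK1, chr16:23678639-23678938, plus strand: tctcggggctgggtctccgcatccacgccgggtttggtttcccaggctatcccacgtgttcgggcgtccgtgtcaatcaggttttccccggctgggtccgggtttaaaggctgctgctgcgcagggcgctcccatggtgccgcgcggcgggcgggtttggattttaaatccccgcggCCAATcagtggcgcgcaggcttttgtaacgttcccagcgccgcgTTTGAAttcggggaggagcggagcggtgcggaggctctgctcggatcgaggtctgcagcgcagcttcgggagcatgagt
CENPA, chr2:26785806-26786105, plus strand: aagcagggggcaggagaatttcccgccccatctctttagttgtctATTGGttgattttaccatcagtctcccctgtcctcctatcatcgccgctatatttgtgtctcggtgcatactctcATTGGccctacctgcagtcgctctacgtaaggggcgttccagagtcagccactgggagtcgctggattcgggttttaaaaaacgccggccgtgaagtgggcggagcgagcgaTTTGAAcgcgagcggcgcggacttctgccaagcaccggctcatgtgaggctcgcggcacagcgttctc
HMMR, chr5:163460382-163460681, plus strand: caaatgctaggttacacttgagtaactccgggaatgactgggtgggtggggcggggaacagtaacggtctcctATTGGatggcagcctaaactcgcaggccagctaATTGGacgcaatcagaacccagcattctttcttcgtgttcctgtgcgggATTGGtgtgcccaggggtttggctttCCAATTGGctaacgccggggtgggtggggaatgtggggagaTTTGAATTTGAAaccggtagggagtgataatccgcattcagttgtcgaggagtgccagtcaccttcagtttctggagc
CDK1, chr10:60778228-60778527, plus strand: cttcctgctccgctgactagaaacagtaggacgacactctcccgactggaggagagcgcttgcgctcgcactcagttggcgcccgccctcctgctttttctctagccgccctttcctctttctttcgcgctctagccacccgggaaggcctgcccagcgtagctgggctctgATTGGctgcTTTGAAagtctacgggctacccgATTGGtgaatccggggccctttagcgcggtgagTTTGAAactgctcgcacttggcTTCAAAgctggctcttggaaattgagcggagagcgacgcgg
KIF2C, chr1:44739587-44739886, plus strand: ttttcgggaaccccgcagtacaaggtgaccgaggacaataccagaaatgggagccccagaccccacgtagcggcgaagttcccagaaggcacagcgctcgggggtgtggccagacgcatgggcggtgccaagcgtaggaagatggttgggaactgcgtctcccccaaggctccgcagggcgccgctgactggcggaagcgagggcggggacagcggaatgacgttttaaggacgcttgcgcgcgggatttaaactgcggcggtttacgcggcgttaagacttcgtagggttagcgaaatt
In CCNB2 and PLK1 the TTTGAA began 29 bases before the start site. In CENPA it began 18 bases before, and in HMMR a tandem pair began 28 and 22 bases before. BIRC5, TPX2, TTK, FOXM1, UBE2C and AURKA are named only.

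Libraries held 11823438 to 47678648 counts. The RB1 transcript, read as a check of the labels, was at 9.94 to 13.4 CPM (the usual depth-scaled count, here with TMM library sizes) in DKO EZ and 9.04 to 11.7 CPM in DKO DMSO, against 95.6 to 122 CPM in WT EZ and 101 to 128 CPM in WT DMSO. The luminal marker KRT8 was present, at 211 to 470 CPM over all 16 libraries. The noncoding RNA RN7SL1 was high in 6 libraries (replicate 1 of all 4 groups and replicate 2 of both DKO groups) and low in the other 10, a division that the labels do not name as a batch. Of markers of other cell types, 5 leukocyte genes summed to at most 0.637 CPM in a library, with CD3E at 0 in all 16. Of 4 endothelial genes PECAM1, CDH5 and KDR were at most 0.361 CPM, and VWF carried the sum of 2.99 to 4.89 CPM in DKO EZ, 5.37 to 10.9 in DKO DMSO, 3.32 to 6.84 in WT EZ and 6.31 to 17.4 in WT DMSO. The 5 fibroblast genes summed to 37.4 to 51.4 CPM in DKO EZ and 25.2 to 43.8 CPM in DKO DMSO, against 16.1 to 21.3 CPM in WT EZ and 15.2 to 21.9 CPM in WT DMSO. Most of that sum was COL1A1, while COL1A2 was at most 0.0849 CPM, DCN at most 0.158 CPM and COL3A1 at most 1.98 CPM. LUM was at 1.14 to 5.99 CPM in DKO EZ and 0.889 to 4.80 in DKO DMSO, against 0 to 0.232 in WT EZ and 0.174 to 0.623 in WT DMSO. The part of these genes in the results was not tested.

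The level of the mitosis genes varied widely within groups. Averaged over the 32 genes, the log2 CPM was 3.61, 5.49, 5.38 and 5.01 in DKO EZ replicates 1 to 4 and 6.00, 6.13, 6.08 and 5.02 in DKO DMSO. In WT cells the average was 2.72, 4.94, 4.88 and 4.97 in EZ and 5.77, 5.25, 5.06 and 3.32 in DMSO. Replicate 1 of both EZ groups and replicate 4 of both DMSO groups were thus the low libraries of their groups. The groups overlapped in each of the 4 comparisons of EZ with DMSO or of DKO with WT. The group averages were 4.87 ± 0.87 in DKO EZ and 5.81 ± 0.53 in DKO DMSO, against 4.38 ± 1.11 in WT EZ and 4.85 ± 1.06 in WT DMSO (SD, n = 4 each). In bulk RNA, fewer cells in G2 and mitosis cannot be told apart from less mitotic RNA per cell.

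The libraries moved as a block across the members. WT EZ replicate 1 was the lowest of all 16 libraries for 27 of the 32 genes, and DKO DMSO replicate 2 the highest for 21. WT DMSO replicate 4 was lowest of its group for 31 genes, DKO DMSO replicate 4 for 31 and DKO EZ replicate 1 for 31. The same libraries were low for 65 other G2/M genes, none of them a member, whose average was 2.82 in WT EZ replicate 1, 3.13 in WT DMSO replicate 4 and 3.50 in DKO EZ replicate 1. They were low for 40 replication genes as well, at 3.70, 3.57 and 4.23 in those 3 libraries, against 4.72 to 5.59 in the other 13. A list of 30 genes of mitotic machinery that non-dividing cells also use (cohesin, tubulin-binding and phosphatase subunits) averaged 6.14 to 6.46 in all 16 libraries.

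**Figure D1:**
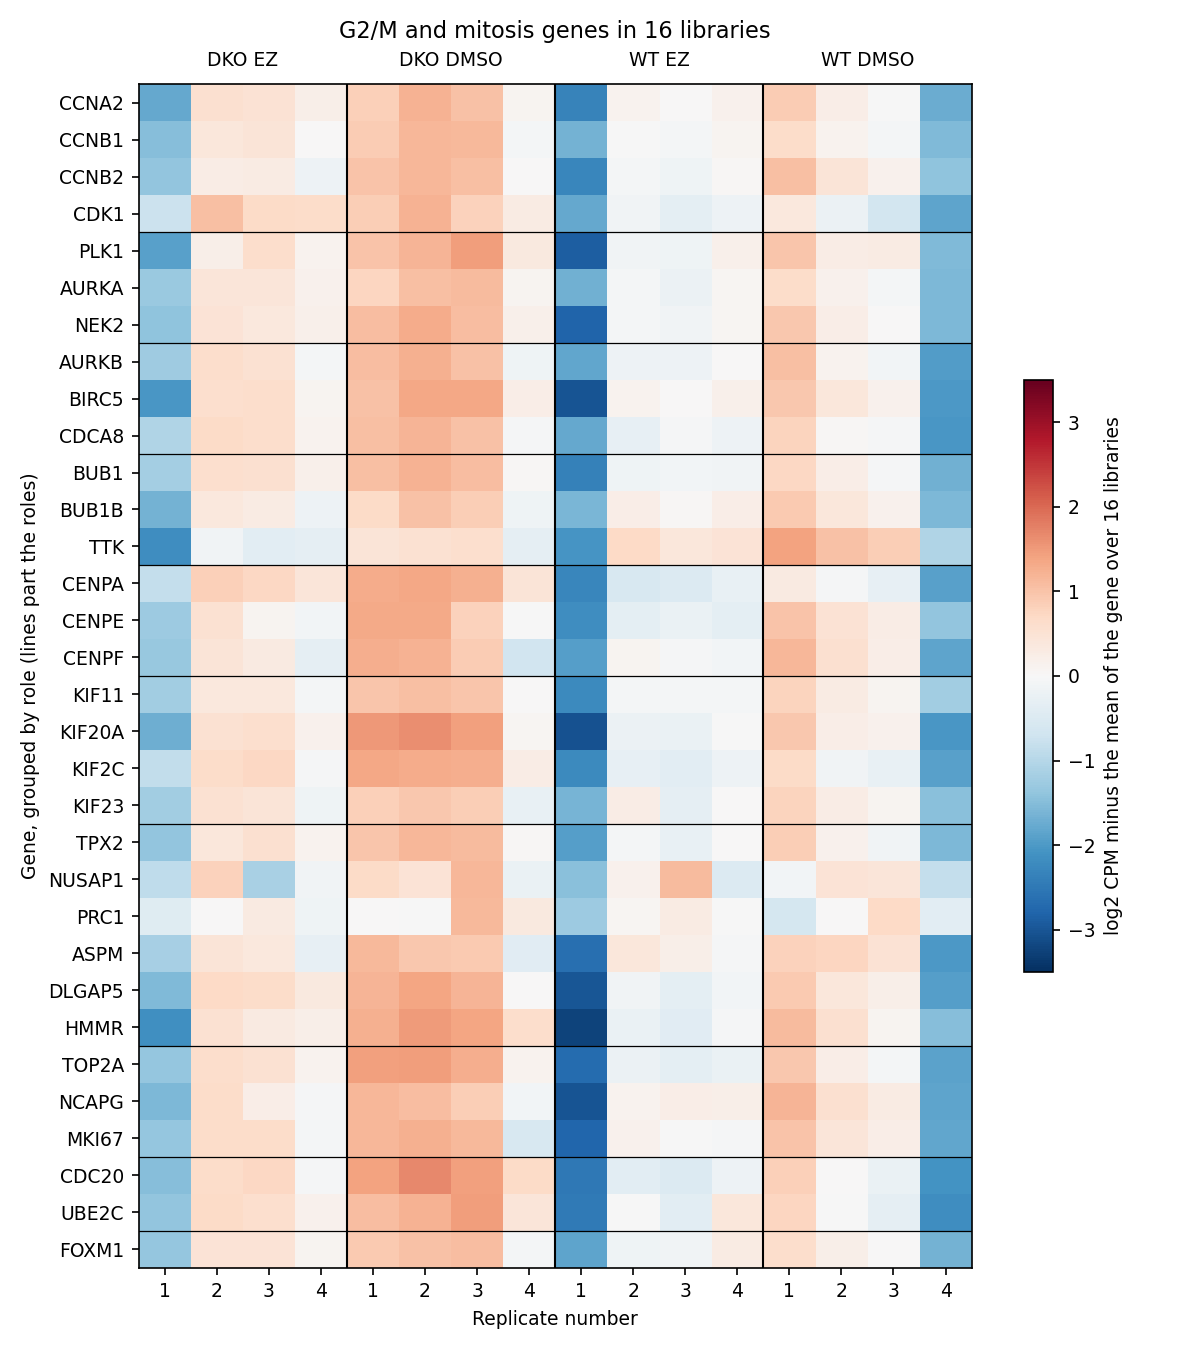
Each row is 1 of the 32 genes and each column 1 library; colour gives log2 CPM minus the mean of that gene over 16 libraries. Replicate 1 of DKO EZ and of WT EZ and replicate 4 of WT DMSO form blue columns through almost every row, and DKO DMSO replicates 1 to 3 form red ones.

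Paired by replicate number within genotype, the drug's difference ranged from strongly lower to higher. In DKO cells the average difference, EZ minus DMSO in log2 CPM, was −2.39 in pair 1, −0.63 in pair 2, −0.70 in pair 3 and −0.0041 in pair 4. In WT cells it was −3.05 in pair 1, −0.32 in pair 2, −0.18 in pair 3 and 1.65 in pair 4. All 32 genes were lower with the drug in pair 1 of both genotypes, and all 32 were higher with it in WT pair 4. In DKO cells 13 of 32 genes were lower in all 4 pairs, where 17.1% of all tested genes were. In WT cells 0 of 32 were, where 15.4% of all tested genes were.

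**Figure D2:**
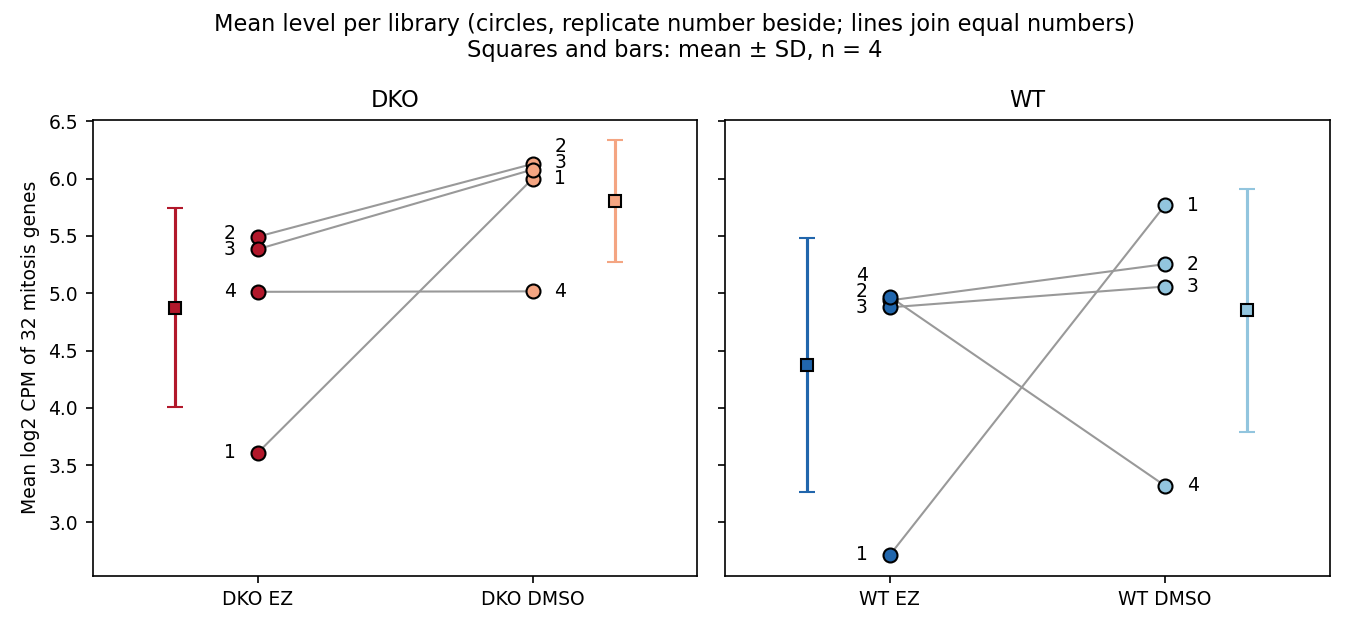
Mean log2 CPM of the 32 genes in each library (circles, numbered by replicate), with lines joining equal numbers and squares with bars giving mean ± SD of 4 libraries. EZ lies below DMSO in 3 of 4 DKO pairs by 0.63 or more, with pair 4 level, and in 3 of 4 WT pairs, with pair 4 higher by 1.65.

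The level was also read within each RN7SL1 set. Among high libraries the average log2 CPM was 3.61 and 5.49 in DKO EZ against 6.00 and 6.13 in DKO DMSO, and 2.72 in WT EZ against 5.77 in WT DMSO. Among low libraries it was 5.38 and 5.01 in DKO EZ against 6.08 and 5.02 in DKO DMSO. For WT it was 4.94, 4.88 and 4.97 in EZ against 5.25, 5.06 and 3.32 in DMSO. In WT EZ the 1 high library was the low one in level, whereas in WT DMSO it was the highest and in DKO EZ the high libraries were both the lowest and the highest of the group.

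No member passed the test for enzalutamide in either genotype. In DKO cells all 32 estimates were negative, with a median log2 fold change of −0.82, beside a median of 0.0057 over all 21810 genes. edgeR called 0 of the 32 at an adjusted p of 0.05, where 1.48% of all genes were called. None of the members had an unadjusted p under 0.05 in edgeR (0 of 32, against 13.3% of all genes), and DESeq2 and limma-voom called 0. In WT cells 31 estimates were negative, with a median of −0.49 beside −0.029 over all genes. edgeR called 0 members where 3.32% of all genes were called, with 0 at an unadjusted p under 0.05, against 15.6% of all genes, and 0 by DESeq2 and limma-voom. In WT 0 members had EZ libraries that did not overlap the DMSO ones, against 9.59% of all genes. Without WT DMSO replicate 1 the WT median was −0.10 and without WT DMSO replicate 4 it was −0.76, and without both EZ replicate 1 libraries it was −0.14. The DKO median was −0.56 without DKO EZ replicate 1. The interaction, the drug's change in DKO minus that in WT, had a median of −0.32 over the members, and edgeR called 0 of 32, as it called 0% of all genes; 0 members had an unadjusted p under 0.05, against 2.97% of all genes, and 0 were called by DESeq2 or limma-voom.

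The knockout went with higher estimates for nearly all members, of which 1 passed. In DMSO 31 of 32 estimates were positive, with a median log2 fold change of 0.82, DKO over WT, beside −0.060 over all genes. CENPA rose and TTK was the only gene with a negative estimate. edgeR called 1 member higher, where 8.91% of all genes were called higher, and 0 lower, where 9.7% were; 4 had an unadjusted p under 0.05, against 30.8% of all genes. DESeq2 called 2 members higher, CENPA and CDK1, where it called 10.6% of all genes higher, and limma-voom called 1, where it called 9.44%. Scaling to library totals moved the median of all genes up by 0.20 in DMSO and 0.24 in EZ, and of the genes then called in DMSO 76.3% were higher in DKO, against 47.9% with TMM. Without the 3 libraries lowest in the members themselves (DKO EZ replicate 1, WT EZ replicate 1 and WT DMSO replicate 4), a choice made by the level and so a description, 5 members were called higher, where 11.4% of all genes were, and 1, TTK, lower, where 8.66% were. In EZ 30 of 32 estimates were positive, with a median of 0.43 beside −0.013. edgeR called 0 members where 20.7% of all genes were called, and 2, CENPA and CDK1, had an unadjusted p under 0.05, against 32.2% of all genes. DESeq2 called 1 member higher, CENPA, where it called 10.9% of all genes higher, and limma-voom called 0. In EZ 0 members had DKO libraries that did not overlap the WT ones, against 24% of all genes. The median in EZ was 0.13 without WT EZ replicate 1 and 0.73 without DKO EZ replicate 1. In DMSO it was 1.24 without WT DMSO replicate 1 and 0.55 without WT DMSO replicate 4. The standard error of a member's estimate was 0.38 to 0.69 on the log2 scale in these 4 comparisons.

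The cyclins and CDK1 form the kinase that starts mitosis. CDK1 (chromosome 10, 60778331 to 60794852, GRCh38, GENCODE v29) encodes its catalytic subunit and had the highest level per length of the 32, at 44.2 CPM per kb of exon over all libraries. CDK1 stood at 87.4, 305, 233 and 231 CPM in DKO EZ replicates 1 to 4 and at 268, 341, 259 and 179.6 CPM in DKO DMSO. In WT cells CDK1 was at 42.7, 135, 116 and 129.6 CPM in EZ and at 189, 129, 93.5 and 41.2 CPM in DMSO. DKO EZ replicates 2 to 4 lay above every WT library, and DKO EZ replicate 1 lay among the low ones. The log2 fold change of CDK1, DKO over WT, was 1.21 ± 0.47 (SE, edgeR adjusted p = 0.0909) in DMSO and 1.02 ± 0.47 (SE, edgeR adjusted p = 0.148) in EZ. With the drug it had the smallest negative estimate of the 32 in DKO, −0.29 ± 0.46 (SE).

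CCNB1 encodes cyclin B1, which activates CDK1 at mitotic entry. CCNB1 stood at 31.4, 118, 121 and 90.7 CPM in DKO EZ replicates 1 to 4 and at 164, 199, 197 and 85.6 CPM in DKO DMSO. In WT cells CCNB1 was at 28.5, 88.4, 84.3 and 94.5 CPM in EZ and at 138, 97.5, 85.4 and 30.2 CPM in DMSO. EZ and DMSO libraries of CCNB1 overlapped in both genotypes. CCNB2, the Golgi-associated B cyclin, ranged over 12.2 to 38.8 CPM in DKO EZ and 32.2 to 71 in DKO DMSO, against 6.54 to 32.7 in WT EZ and 11.9 to 66.8 in WT DMSO. CCNA2, cyclin A2 of S and G2 phase, ranged over 8.08 to 41.7 CPM in DKO EZ and 30.2 to 65.9 in DKO DMSO, against 5.54 to 31 in WT EZ and 8.47 to 52.5 in WT DMSO. No cyclin passed in any of the 5 comparisons.

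PLK1, which promotes mitotic entry, centrosome maturation and cytokinesis, was at 6.77, 29.2, 38.7 and 27.4 CPM in DKO EZ and 51, 58.1, 70.1 and 32.2 CPM in DKO DMSO. In WT cells PLK1 was at 3.38, 23.4, 22.9 and 28.4 CPM in EZ and 49.4, 30.1, 30.8 and 8.68 CPM in DMSO. Its DKO pairs were all lower with the drug, by 2.90, 0.99, 0.86 and 0.23 on the log2 scale, yet the estimate of −1.04 ± 0.61 (SE) did not pass (edgeR adjusted p = 0.522). AURKA, the spindle pole kinase, averaged 41 ± 17.3 CPM in DKO EZ and 68.2 ± 19.7 in DKO DMSO, against 30.9 ± 12.9 in WT EZ and 38.4 ± 19.5 in WT DMSO (SD, n = 4 each). NEK2, which splits centrosomes, averaged 28.2 ± 12.4 CPM in DKO EZ and 52.8 ± 15.3 in DKO DMSO, against 20.6 ± 11.3 in WT EZ and 30.0 ± 17.6 in WT DMSO.

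The chromosomal passenger complex corrects faulty attachments between chromosomes and spindle. AURKB is its kinase. AURKB stood at 4.79, 17.7, 16.6 and 10.8 CPM in DKO EZ replicates 1 to 4 and at 24.4, 27.1, 23.3 and 10.2 CPM in DKO DMSO. In WT cells AURKB was at 3.21, 10.0, 10.0 and 11.5 CPM in EZ and at 23.9, 12.4, 10.7 and 2.87 CPM in DMSO. WT DMSO replicate 1 lay within the range of DKO DMSO, so the genotypes overlapped for AURKB. BIRC5 (survivin), a subunit that brings the complex to centromeres, ranged over 10.2 to 64.1 CPM in DKO EZ and 49.5 to 108 in DKO DMSO, against 5.15 to 47.3 in WT EZ and 10.3 to 81 in WT DMSO. CDCA8 (borealin) ranged over 14.4 to 47.6 CPM in DKO EZ and 29.2 to 68.7 in DKO DMSO, against 8.59 to 29.3 in WT EZ and 7.27 to 51.8 in WT DMSO. None of the 3 passed in any comparison.

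The spindle assembly checkpoint delays anaphase until all chromosomes are attached. TTK (chromosome 6, 80003887 to 80042527, GRCh38), the kinase MPS1 at its head, had the lowest knockout estimates of the 32. TTK stood at 4.43, 18.5, 15.8 and 16.4 CPM in DKO EZ replicates 1 to 4 and at 27.6, 29.1, 30.6 and 16.3 CPM in DKO DMSO. In WT cells TTK was at 4.77, 33, 26.6 and 28.4 CPM in EZ and at 54.2, 41.7, 36.6 and 9.68 CPM in DMSO. Every DKO EZ library was below WT EZ replicates 2 to 4, although WT EZ replicate 1 was nearly as low as DKO EZ replicate 1. Its log2 fold change, DKO over WT, was −0.46 ± 0.57 (SE, edgeR adjusted p = 0.644) in DMSO and −0.75 ± 0.57 (SE, edgeR adjusted p = 0.417) in EZ. BUB1 is a kinase that recruits checkpoint and centromere proteins. BUB1 stood at 21.1, 72.6, 71.7 and 54.6 CPM in DKO EZ replicates 1 to 4 and at 101, 112, 103 and 49.6 CPM in DKO DMSO. In WT cells BUB1 was at 9.36, 44, 45.3 and 44.6 CPM in EZ and at 80.3, 57.1, 47.1 and 15 CPM in DMSO. WT DMSO replicate 1 exceeded the lowest DKO DMSO library for BUB1, so these groups overlapped. BUB1B (BUBR1), an inhibitor of the anaphase-promoting complex, averaged 31.8 ± 15.3 CPM in DKO EZ and 54.2 ± 17 in DKO DMSO, against 31.6 ± 13.8 in WT EZ and 39.5 ± 21.7 in WT DMSO (SD, n = 4 each). Its estimate in EZ, DKO over WT, was 0.0085 ± 0.52 (SE).

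At the centromere, CENPA was the 1 member that passed. CENPA (chromosome 2, 26764289 to 26801067, GRCh38) encodes the histone H3 variant that marks centromeres. CENPA stood at 4.91, 15.8, 14.6 and 11.8 CPM in DKO EZ replicates 1 to 4 and at 21.7, 22.8, 20.9 and 12 CPM in DKO DMSO. In WT cells CENPA was at 1.77, 6.01, 6.30 and 7.40 CPM in EZ and at 11.1, 8.66, 7.25 and 2.33 CPM in DMSO. All 4 DKO DMSO libraries lay above all 4 WT DMSO libraries, the only member of 32 without overlap in that direction, where 10.8% of all genes had none. The log2 fold change, DKO over WT, was 1.40 ± 0.46 (SE, edgeR adjusted p = 0.0467) in DMSO and 1.12 ± 0.47 (SE, edgeR adjusted p = 0.106) in EZ. Without WT DMSO replicate 1, 3 members were called higher in DMSO, where 8.54% of all genes were. The call of CENPA in DMSO did not hold without WT DMSO replicate 2, 3 or 4, DKO DMSO replicate 1, 2 or 3, WT EZ replicate 2 or 3 or DKO EZ replicate 4 (highest edgeR adjusted p = 0.0978), nor with the RN7SL1 set as a term (edgeR adjusted p = 0.0573).

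CENPE, a kinesin that moves chromosomes to the spindle equator, ranged over 16.1 to 55.6 CPM in DKO EZ and 38.1 to 97.7 in DKO DMSO, against 8.53 to 32.9 in WT EZ and 14.9 to 77.4 in WT DMSO. Its drug estimates were −1.01 ± 0.51 (SE) in DKO and −0.91 ± 0.52 (SE) in WT. CENPF, a large outer kinetochore protein, ranged over 66.1 to 226 CPM in DKO EZ and 105 to 400.1 in DKO DMSO, against 43.5 to 178 in WT EZ and 46.1 to 368 in WT DMSO.

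Kinesins move and shape the spindle. KIF11 (Eg5) pushes its poles apart. KIF11 stood at 20.8, 61.8, 62.6 and 45.9 CPM in DKO EZ replicates 1 to 4 and at 95.2, 99.3, 95 and 49.1 CPM in DKO DMSO. In WT cells KIF11 was at 10.2, 46.4, 46.3 and 45.9 CPM in EZ and at 82.2, 59.2, 51.4 and 20.8 CPM in DMSO. DKO and WT libraries of KIF11 overlapped in both treatments. KIF2C (MCAK), which takes microtubules apart at centromeres, was at 18.6, 52.8, 56.1 and 33.1 CPM in DKO EZ and 87.4, 84.4, 81.9 and 41.1 in DKO DMSO. In WT cells KIF2C was at 7.20, 28.1, 26.4 and 30.3 CPM in EZ and 54.3, 31.4, 28.7 and 9.01 in DMSO. Its estimate in DMSO, DKO over WT, was 1.26 ± 0.52 (SE, edgeR adjusted p = 0.115), with only WT DMSO replicate 1 above DKO DMSO replicate 4. KIF20A and KIF23, which act at the spindle midzone in cytokinesis, had log2 fold changes in DMSO, DKO over WT, of 1.13 ± 0.67 (SE) and 0.55 ± 0.48 (SE), neither past the threshold.

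Among spindle and midzone proteins, TPX2, which targets AURKA to spindle microtubules, was the third highest member per length at 36.7 CPM per kb of exon. TPX2 stood at 43, 149, 167 and 122 CPM in DKO EZ replicates 1 to 4 and at 221, 251, 241 and 115 CPM in DKO DMSO. In WT cells TPX2 was at 29.4, 106, 93.2 and 112 CPM in EZ and at 203, 123, 102 and 37.5 CPM in DMSO. DKO EZ replicates 2 to 4 were above all WT EZ libraries for TPX2, and in DMSO the genotypes overlapped. HMMR, a microtubule-binding protein of spindle poles, had the lowest drug estimate of the 32 in both genotypes. HMMR stood at 14, 90.4, 78.1 and 72 CPM in DKO EZ replicates 1 to 4 and at 147, 177, 164 and 95.3 CPM in DKO DMSO. In WT cells HMMR was at 6.54, 53.6, 47.8 and 60.4 CPM in EZ and at 136, 92.5, 66.5 and 22 CPM in DMSO. In DKO the 4 EZ libraries lay below the 4 DMSO libraries, with 1 member of 32 showing no overlap in that direction where 4.41% of all genes had none, but the estimate of −1.20 ± 0.66 (SE) did not pass (edgeR adjusted p = 0.484). In WT the estimate was −0.91 ± 0.66 (SE, edgeR adjusted p = 0.572).

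DLGAP5 (HURP), which stabilises kinetochore fibres, had the interaction nearest to 0 at −0.052 ± 0.90 (SE). DLGAP5 stood at 15.7, 74.3, 72 and 58.8 CPM in DKO EZ replicates 1 to 4 and at 106, 121, 105 and 46.3 CPM in DKO DMSO. In WT cells DLGAP5 was at 5.76, 42.6, 36.2 and 43.3 CPM in EZ and at 86.2, 60.2, 53 and 12.1 CPM in DMSO. DKO EZ replicates 2 to 4 were above WT EZ replicates 2 to 4. ASPM, a spindle pole protein, averaged 57.1 ± 25 CPM in DKO EZ and 98.9 ± 37.2 in DKO DMSO, against 52.5 ± 29.9 in WT EZ and 74.4 ± 40.8 in WT DMSO (SD, n = 4 each).

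NUSAP1 and PRC1, both microtubule-bundling proteins, had few counts. NUSAP1 held 141 counts in all 16 libraries together and PRC1 626. NUSAP1 stood at 0.120, 0.552, 0.0885 and 0.252 CPM in DKO EZ replicates 1 to 4 and at 0.494, 0.425, 0.722 and 0.227 CPM in DKO DMSO. In WT cells NUSAP1 was at 0.0554, 0.324, 0.695 and 0.183 CPM in EZ and at 0.261, 0.420, 0.406 and 0.125 CPM in DMSO. The 4 groups of NUSAP1 overlapped. It had the lowest interaction estimate, −1.04 ± 0.93 (SE), and the highest drug estimate in WT, 0.06 ± 0.65 (SE). PRC1 ranged over 0.958 to 1.65 CPM in DKO EZ and 1.32 to 2.99 in DKO DMSO, against 0.499 to 1.62 in WT EZ and 0.836 to 2.21 in WT DMSO. In GENCODE v29, 62.2% of the exon bases of NUSAP1 and 58.4% of those of PRC1 belong also to another gene, mostly to a gene on the same strand, and the part of this in their low counts was not tested. The shared part was 33.1% for NCAPG and 15.9% for FOXM1, both with a gene on the opposite strand, 12.5% for PLK1 and 10.2% for BUB1B. For CCNA2 it was 9.08%, for CENPA 6.96%, with SLC35F6 on the same strand, and for KIF20A 5.05%. In the remaining members it was 4.8% or less. As the strand setting of the counting is not given in the sources used here, these values are uncertain.

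Of the proteins that shape chromosomes, TOP2A is the topoisomerase that untangles sister DNA. TOP2A stood at 60.4, 235, 221 and 168 CPM in DKO EZ replicates 1 to 4 and at 417, 422, 372 and 168 CPM in DKO DMSO. In WT cells TOP2A was at 23.9, 134, 122 and 132 CPM in EZ and at 293, 182, 147 and 41.7 CPM in DMSO. DKO EZ replicates 2 to 4 were above all WT EZ libraries for TOP2A, and in DMSO the genotypes overlapped. MKI67, the Ki-67 antigen, coats mitotic chromosomes. MKI67 stood at 47.2, 186, 186 and 114 CPM in DKO EZ replicates 1 to 4 and at 268, 286, 264 and 81.7 CPM in DKO DMSO. In WT cells MKI67 was at 17.6, 133, 118 and 116 CPM in EZ and at 240.0, 159, 140.3 and 34 CPM in DMSO. DKO DMSO replicate 4 was below 3 of the 4 DKO EZ libraries for MKI67. NCAPG, a condensin I subunit, had DKO over WT estimates of 0.44 ± 0.65 (SE) in DMSO and 0.19 ± 0.66 (SE) in EZ.

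The anaphase-promoting complex ends mitosis by marking cyclin B and securin for destruction. CDC20 is its mitotic activator. CDC20 stood at 16.3, 72.7, 75.9 and 45.3 CPM in DKO EZ replicates 1 to 4 and at 123, 148, 126 and 73 CPM in DKO DMSO. In WT cells CDC20 was at 8.09, 36, 33.2 and 40.6 CPM in EZ and at 82.8, 46.4, 39.5 and 10.7 CPM in DMSO. WT DMSO replicate 1 was above the lowest DKO DMSO library for CDC20. Its log2 fold change, DKO over WT, was 1.39 ± 0.59 (SE, edgeR adjusted p = 0.128) in DMSO. UBE2C is a ubiquitin-conjugating enzyme of the complex. UBE2C stood at 4.31, 18.2, 16.9 and 12.5 CPM in DKO EZ replicates 1 to 4 and at 24, 26.4, 31.7 and 15.3 CPM in DKO DMSO. In WT cells UBE2C was at 1.99, 11.1, 8.69 and 14.8 CPM in EZ and at 19.3, 11.3, 9.17 and 2.45 CPM in DMSO. WT DMSO replicate 1 exceeded DKO DMSO replicate 4 for UBE2C. In DMSO its estimate, DKO over WT, was 1.21 ± 0.60 (SE, edgeR adjusted p = 0.192).

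FOXM1, the transcription factor that activates many of the other members, was the only factor of its kind on the list. FOXM1 stood at 16.3, 58.4, 58 and 44.7 CPM in DKO EZ replicates 1 to 4 and at 79, 85.6, 88.3 and 40.0 CPM in DKO DMSO. In WT cells FOXM1 was at 11.6, 37.4, 38.3 and 50.9 CPM in EZ and at 64.2, 48.2, 41.8 and 13.2 CPM in DMSO. FOXM1 libraries overlapped between all groups. In DMSO its estimate, DKO over WT, was 0.81 ± 0.51 (SE, edgeR adjusted p = 0.316).

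Set against the 65 other G2/M genes of the same library, the members were steady. The SD of a member's log2 CPM over the 16 libraries had a median of 1.02, and the SD of its difference from the mean of the 65 genes a median of 0.33. AURKA varied least, at 0.098, followed by FOXM1 at 0.12 and TPX2 at 0.12. PRC1 at 0.67, NUSAP1 at 0.65 and TTK at 0.64 varied most. A further edgeR fit, added after the data had been seen, took the mean log2 CPM of the 65 genes as a covariate, so its changes hold at an equal level of those genes and are called relative changes here.

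In that fit members were called in both directions between the genotypes; CCNB2, CENPE, KIF2C, BUB1B and NCAPG are named from it after their values were seen. In DMSO CDK1, CENPA, KIF2C and CDC20 were relatively higher, 4 of 32 where 9.13% of all genes were called higher. TTK, CCNB2, BUB1B, NCAPG and MKI67 were relatively lower, 5 of 32 where 9.12% were called lower. The relative change of CENPA in DMSO was 0.64 ± 0.12 (SE, edgeR adjusted p = 0.00139), of CDK1 0.53, of CDC20 0.54 and of KIF2C 0.48. TTK had the lowest value, −1.36 ± 0.15 (SE, edgeR adjusted p = 5.5e-06), with NCAPG at −0.59, MKI67 at −0.45, BUB1B at −0.36 and CCNB2 at −0.28. The calls of CENPA, CDK1, KIF2C, CDC20, TTK and NCAPG held without any single library. BUB1B did not without WT DMSO replicate 2 or DKO DMSO replicate 4, nor MKI67 without WT DMSO replicate 2, 3 or 4, DKO DMSO replicate 4 or any WT EZ replicate, and of the 16 fits without a library CCNB2 passed in only the 3 without DKO EZ replicate 1, 2 or 4. With 40 replication genes as the covariate in place of the 65, edgeR called 0 members higher in DMSO, where 8.37% of all genes were, with CENPA at 0.42 (edgeR adjusted p = 0.0687) and CDK1 at 0.33 (edgeR adjusted p = 0.0988).

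Under the drug CENPA, CDK1, KIF2C, CDC20 and TOP2A were called relatively higher in DKO, 5 of 32 where 11.2% of all genes were. TTK and BUB1B were called lower, 2 of 32 where 13% of all genes were. The relative change in EZ was 0.72 ± 0.11 (SE, edgeR adjusted p = 0.00023) for CENPA and 0.60 ± 0.11 (SE, edgeR adjusted p = 0.000813) for CDK1. For TTK it was −1.18 ± 0.14 (SE, edgeR adjusted p = 1.13e-05) and for BUB1B −0.49 ± 0.095 (SE, edgeR adjusted p = 0.00105). These 4 calls held without any single library. KIF2C, at 0.40, missed the threshold without DKO EZ replicate 1. It also missed it without both EZ replicate 1 libraries (0.28, edgeR adjusted p = 0.0871) and without the 3 lowest libraries (0.25, edgeR adjusted p = 0.166). CDC20, at 0.29, passed in only 2 of the 16 fits without a library (WT DMSO replicate 1 or DKO EZ replicate 4). TOP2A, at 0.26, passed in only 5 (WT DMSO replicate 1, 3 or 4 or DKO DMSO replicate 1 or 4). With replication genes as the covariate the values in EZ were 0.14 for KIF2C (edgeR adjusted p = 0.524), −0.020 for CDC20 and −0.053 for TOP2A. The DMSO and EZ comparisons share no libraries, but they share the covariate and the estimate of spread.

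**Figure D3:**
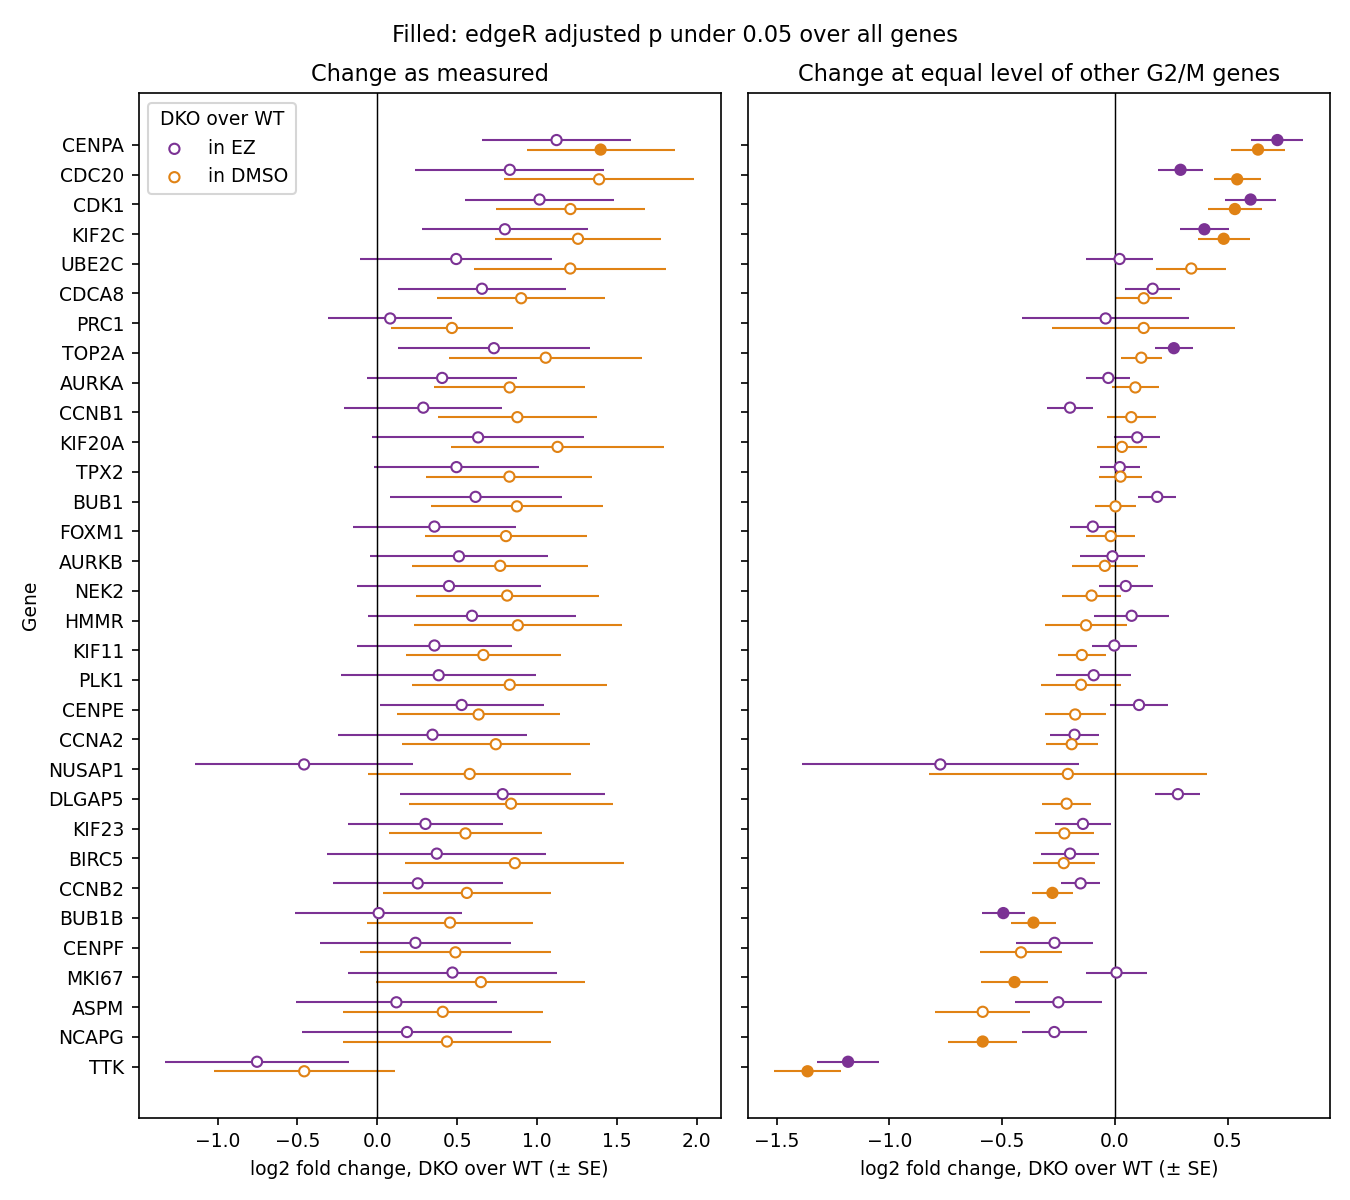
Log2 fold change ± SE, DKO over WT, of each member as measured (left) and at an equal level of the 65 other G2/M genes (right), in EZ and in DMSO; filled points passed edgeR's adjusted p of 0.05 over all genes. As measured only CENPA in DMSO is filled, while at equal level CENPA, CDC20, CDK1 and KIF2C are filled to the right in both treatments and TTK and BUB1B to the left.

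Relative values of single libraries are given for CENPA, TTK and CDK1, picked from the calls of the relative fit. They come from the same libraries as that fit and are no further support for it. The measures differ, as the fit estimates a slope on the 65 genes for each member, whereas here their mean is subtracted in full. In DMSO the subtracted values of MKI67 averaged 2.29 in DKO and 2.38 in WT, beside a relative change of −0.45 in the fit. Those of NCAPG averaged 0.083 in DKO and 0.27 in WT, beside −0.59. Most members overlapped between DKO and WT on this scale, and the share over all genes is not given here. As log2 CPM minus the mean of the 65 genes, CENPA was at −1.19 to −1.13 in DKO EZ and −1.18 to −1.10 in DKO DMSO, against −2.03 to −1.76 in WT EZ and −1.87 to −1.69 in WT DMSO. All 8 DKO libraries were thus above all 8 WT libraries. TTK was at −1.33 to −0.69 in DKO EZ and −0.78 to −0.63 in DKO DMSO, against −0.55 to 0.41 in WT EZ and 0.15 to 0.58 in WT DMSO. All 8 DKO libraries were below all 8 WT libraries. CDK1 was at 2.79 to 3.13 in DKO EZ and 2.45 to 2.76 in DKO DMSO, against 2.32 to 2.60 in WT EZ and 1.93 to 2.24 in WT DMSO, so that DKO lay above WT within each treatment and EZ above DMSO within each genotype.

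**Figure D4:**
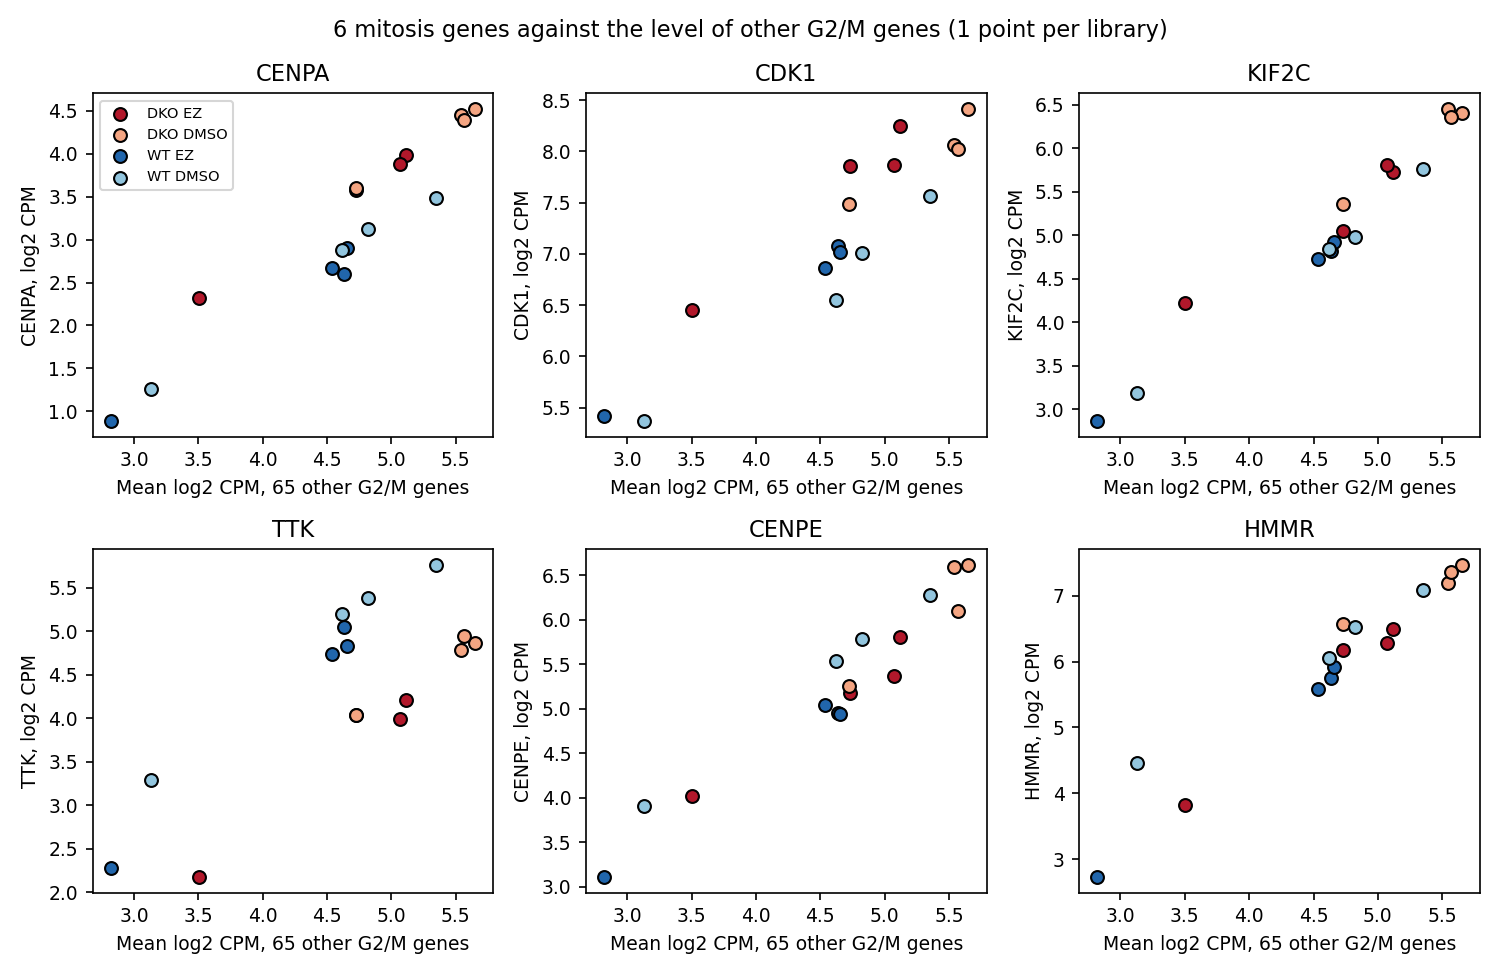
Log2 CPM of 6 members against the mean log2 CPM of 65 other G2/M genes, 1 point per library. Within each treatment DKO points run above WT points for CENPA, CDK1 and KIF2C and below them for TTK. EZ points lie below DMSO points of the same genotype for HMMR, and in WT for CENPE.

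For the drug 2 relative changes were called. In WT CCNB2, at −0.31 ± 0.085 (SE, edgeR adjusted p = 0.0469), and CENPE, at −0.52 ± 0.13 (SE, edgeR adjusted p = 0.0224), were called lower, 2 of 32 where 1.96% of all genes were. Of the fits without a library CCNB2 passed in only that without DKO DMSO replicate 4, and CENPE did not pass without WT DMSO replicate 2, 3 or 4 or WT EZ replicate 2 or 4. In DKO edgeR called 0 members where 1.43% of all genes were called, with 3 at an unadjusted p under 0.05, against 11.4% of all genes. The interaction had 0 members called where 0.00917% of all genes were, and 2 at an unadjusted p under 0.05, against 3.48% of all genes.

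Because replicate numbers paired the libraries within a genotype, the relative fit was repeated with those pairs as blocks. The mean level of the members did not follow that pairing in WT. There replicate 1 was lowest in EZ (2.72) but highest in DMSO (5.77). Replicate 4 was highest in EZ (4.97) but lowest in DMSO (3.32). In WT it called 9 members lower, where 10.7% of all genes were called lower, and 1 higher, where 14.8% were. HMMR was lowest at −0.57 (edgeR adjusted p = 1.21e-05) and CENPE at −0.52 (edgeR adjusted p = 2.66e-05), with CCNB2, PLK1, TTK, KIF11, KIF20A, DLGAP5 and TOP2A, and CDK1 was relatively higher at 0.27 (edgeR adjusted p = 0.0035). In DKO HMMR, at −0.34 (edgeR adjusted p = 0.00583), and CDC20, at −0.37 (edgeR adjusted p = 0.0063), were lower, 2 of 32 where 6.02% of all genes were. CDK1, at 0.33 (edgeR adjusted p = 0.00187), and MKI67, at 0.27 (edgeR adjusted p = 0.0273), were higher, 2 of 32 where 7.87% of all genes were. The interaction was called for DLGAP5, at 0.51 (edgeR adjusted p = 0.00748), and MKI67, at 0.45 (edgeR adjusted p = 0.0233), where 0.784% of all genes were called in that direction. Without the covariate, the blocked fit called 0 members for the drug in either genotype and 0 for the interaction.

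Other genes of the pathway were read from lists. Over all 21810 genes edgeR called 8.91% higher and 9.7% lower in DKO in DMSO, and 2027 genes higher and 2481 lower in EZ. For the drug it called 1.48% of all genes in DKO and 3.32% in WT. Of the 65 other G2/M genes edgeR called 3 higher in DKO in DMSO, namely WEE1, the kinase that holds CDK1 inactive (log2 1.02 ± 0.11 (SE)), CDC25B, the phosphatase that activates it (0.97 ± 0.28), and the CDK subunit CKS1B (0.87 ± 0.29), and 0 lower. Their median was 0.76, beside 0.82 for the members. In EZ 1 of 65, WEE1, was higher in DKO at 0.82 ± 0.11 and 0 were lower, and for the drug 0 of 65 were called in either genotype, with medians of −0.71 in DKO and −0.34 in WT. WEE1 averaged 151 ± 10.4 CPM in DKO EZ and 149.8 ± 6.90 CPM in DKO DMSO, against 85.6 ± 11.8 CPM in WT EZ and 73.6 ± 10.1 CPM in WT DMSO (SD, n = 4 each). The fibroblast gene COL1A1 was also higher in DKO, by 1.12 ± 0.17 (SE) in EZ and 0.92 ± 0.17 (SE) in DMSO. LUM was higher by 4.76 ± 0.67 (SE) in EZ and 3.07 ± 0.60 (SE) in DMSO. COL3A1 was called higher in DKO than in WT only in DMSO, by 1.59 ± 0.36 (SE). For the drug in WT edgeR called COL3A1 higher, at a log2 fold change of 1.67 ± 0.36 (SE), and the endothelial gene VWF lower, at −1.29 ± 0.30 (SE). For the drug in DKO it called no tested fibroblast or endothelial gene.

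Among 14 genes of the DREAM and MuvB complexes, 2 were called higher and 1 lower in DKO in DMSO, where 8.91% and 9.7% of all genes were. RBBP4, a histone-binding MuvB subunit, rose by 0.56 ± 0.16 and RBL1, the pocket protein p107, by 0.55 ± 0.18, while RBL2, the pocket protein p130, fell by 0.70 ± 0.14 on the log2 scale. RBL2 averaged 114.6 ± 14.3 CPM in DKO EZ and 95.3 ± 7.57 CPM in DKO DMSO, against 197 ± 32.7 CPM in WT EZ and 155 ± 30.1 CPM in WT DMSO. In EZ RBL1 was higher at 0.51 ± 0.18, and RBL2 and E2F4, at −0.78 ± 0.14 and −0.47 ± 0.12, were lower. Of 40 replication genes 8 were called higher in DKO in DMSO, where 8.91% of all genes were, with a median of 0.66. In EZ 6 of them were called higher, where 2027 of 21810 genes were, with a median of 0.38. In neither treatment was a replication gene called lower. Of the 30 constitutive machinery genes 0 were higher and 4 lower in DMSO, where 9.7% of all genes were lower. In EZ 1 of them was higher and 3 lower, where 2481 of 21810 genes were lower.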

How the data were processed

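Total RNA of 16 LNCaP libraries was sequenced, and the authors deposited each library as its own table of raw counts per Ensembl gene ID. Per the submitters' processing notes STAR 2.7.3a and GRCh38 were named, with no role given. The counter, strand setting and annotation were not given in the sources used here. The 32 members and the other lists were chosen with earlier results of these data known. The p53 transcript is not reported here. Counts were filtered with filterByExpr (minimum count 10, minimum total 15), scaled by TMM and fitted with edgeR 4.0.16 in R 4.3.3: 1 mean per group, 16 libraries, quasi-likelihood F-test, Benjamini-Hochberg adjustment over 21810 genes, threshold 0.05. Log2 CPM used a prior count of 2. DESeq2 1.42.0, limma-voom (limma 3.58.1), other scalings, no filter, replicate blocks, the RN7SL1 set as a term and leaving out libraries were alternatives. The covariate fits and the fit without the 3 lowest libraries were added after the data had been seen. Libraries of each group were given in full for 13 genes fixed by name, for called members and for the highest and lowest estimates of each comparison. No label states whether replicates came from separate cultures; every p-value thus rests on the spread between these libraries, which may be technical. Replicates differed by more than sampling noise (chi-square per degree of freedom 5.37 to 104). Within a genotype, libraries of equal number deviated together (correlation 0.33 to 0.66 in 8 pairs, each best with its own number), so the numbers pair them there. For WT replicate 2 the margin was small, 0.33 against 0.30 with another number. The mean level of the members in WT did not follow this pairing. Depth was 11823438 to 47678648 counts. In a test on simulated data for EZ against DMSO in WT (20958 genes, 50 altered per fold size), edgeR recovered 6% at 1.5-fold, 36% at 2-fold, 96% at 3-fold and 100% at 4-fold. These shares are not specific to the members, whose standard errors in that comparison were 0.39 to 0.68 on the log2 scale. How often a change of a given size in a member would be called was not tested. Promoter sequences are from RefSeq (GRCh38.p14).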

Additional observations from a re-analysis of the deposited data

Results flagged for a closer look

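Within 4 libraries of a group, 11 of 72 tested values lay far from the other 3. For a single value chance gives about 1 in 20 such gaps. As the genes moved as a block within libraries, the 72 values are not independent, and their number cannot be set against that rate. All 11 fell in WT EZ replicate 1 or DKO DMSO replicate 4. In WT EZ replicate 1 the mean level of the 32 genes was 2.72 log2 CPM. The same library was low for CCNB1 at 28.5 CPM, BUB1 at 9.36, KIF11 at 10.2, TOP2A at 23.9, MKI67 at 17.6 and CENPE at 8.53 CPM. In DKO DMSO replicate 4 the mean level was 5.02 log2 CPM. That library was low for KIF11 at 49.1 CPM, MKI67 at 81.7 and KIF2C at 41.1 CPM.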

How the results depend on the processing

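As measured, members called higher in DKO in DMSO numbered 0 with no filter on low counts, with the RN7SL1 set as a term or with a replicate block, 2 with DESeq2 (1 in EZ), and 4 without both EZ replicate 1 libraries. Without the 3 lowest libraries, picked by the level itself and so a description, 5 were higher and 1 lower in DMSO and 2 higher and 1 lower in EZ. Leaving out single libraries gave 0 to 3 higher in DMSO. The block across genotypes is not part of the design: equal numbers correlated at −0.067 to 0.67 between genotypes, and CENPA in DMSO had an edgeR adjusted p of 0.0671 with it. For relative changes, leaving out single libraries gave 0 to 3 lower for the drug in WT, 2 to 6 lower in DMSO and 2 to 5 higher in EZ for the knockout. Without both EZ replicate 1 libraries 2 were higher and 4 lower in EZ; without the 3 lowest, 2 were higher in EZ and 1 lower for the drug in WT. Relative log expression scaling gave 1 lower for the drug in WT and 3 lower in DMSO, and library totals 3 higher in EZ. With the replicate block 1 was higher and 5 lower for the drug in WT, and 1 higher and 1 lower in DKO. With the replicate block within genotype 1 was higher and 9 lower in WT, 2 higher and 2 lower in DKO, and 2 higher in the interaction. With replication genes as the covariate 7 were lower for the drug in WT and 2 in DKO, 0 higher in DMSO, and 2 higher and 8 lower in EZ, where TOP2A was at −0.053 and CDC20 at −0.020. The causes were not tested. Among alternatives other than leaving out 1 library, 31 counts of called members moved by over 1.5 times and 159 did not; of named genes' values, 641 stayed on their side of the threshold, 25 lost a call, 12 gained one and 2 reversed. Leaving out 1 library moved 40 such counts and not 280, and 78 gene values lost a call, 2 gained one and 976 did neither. The median relative change in EZ for the knockout was −0.0064, and 0.0031 without WT EZ replicate 2. Standard errors of 0.38 or more limit what 4 libraries a group can show.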
